A study of Homo sapiens with 12 samples.

Results

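YAP, TEAD and CCN genes were followed in 22Rv1 cells, an established human prostate carcinoma line, on 12 Human U133plus2.0 arrays. The set holds 10 genes, with all their probe sets taken by symbol, and was chosen with earlier results of these data known. The co-activator genes are YAP1 and WWTR1, and the DNA-binding partner genes are TEAD1, TEAD2, TEAD3 and TEAD4. The target or feedback genes are CCN1, CCN2, AMOTL2 and LATS2. Older names (CYR61 for CCN1, CTGF for CCN2) counted. The platform annotation mapped 24 of the 54675 probe sets to them, and all 10 genes were among the 12635 tested. Groups of 3 arrays each were vehicle, and 4 h, 6 h and 16 h with 1 small-molecule inhibitor of ONECUT2, a homeodomain transcription factor. All cells were of the same line in serum-supplemented medium, and the labels used here give neither a dose nor a time for the vehicle arrays. A code element found in the titles of the other 9 arrays is missing at 16 h, so compound, time in culture and whatever that element stands for cannot be told apart there. The sources do not say whether replicates came from separate cultures, and the p-values therefore cover the spread among arrays, possibly technical, and nothing wider.

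YAP1 and the product of WWTR1, called TAZ, are co-activators that do not bind DNA themselves and reach their target genes through the TEAD proteins. In the Hippo pathway the LATS kinases phosphorylate YAP and TAZ, which holds them out of the nucleus. CCN1 and CCN2 encode secreted matrix-associated proteins and are widely used readouts of YAP and TEAD activity, although serum and stress signals induce them too. AMOTL2, an angiomotin family protein that binds YAP, and LATS2, one of the kinases, are themselves induced by YAP and so act as feedback inhibitors. These arrays measure messenger RNA and say nothing of the phosphorylation or location of the proteins.

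TEAD proteins bind DNA at the sequence GGAATG, known as the M-CAT element. Promoter windows of 250 bases before the gene start, from RefSeq with build GRCh38.p14, were at hand for 7 of the 10 genes (10 windows), and both strands were searched. Those of CCN2, YAP1 and AMOTL2 held the motif, 3 of 10 windows, against 11.9% of 35116 windows of the same length over all genes. The CCN2 window held 3 matches, which 0.0826% of all windows reached with 3 or more. It lies on the minus strand at chr6:131951373-131951622 and is shown because CCN2 changed early in these cells, with capitals marking each match:

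CCN2: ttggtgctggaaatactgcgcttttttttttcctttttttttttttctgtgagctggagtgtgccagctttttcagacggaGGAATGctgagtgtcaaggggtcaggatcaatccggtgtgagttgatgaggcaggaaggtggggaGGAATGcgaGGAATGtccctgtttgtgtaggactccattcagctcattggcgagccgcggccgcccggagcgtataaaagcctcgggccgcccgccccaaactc

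The matches began 169, 104 and 95 bases before the start. AMOTL2, which changed beside CCN2 at 4 h, had 1 match, on the opposite strand and beginning 69 bases before the second of its 2 RefSeq starts, at chr3:134374499-134374528 on the minus strand. YAP1 had 1 match, 162 bases before its start, at chr11:102110273-102110302 on the plus strand. Both are given with 12 bases on each side:

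AMOTL2: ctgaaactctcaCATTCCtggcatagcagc
YAP1: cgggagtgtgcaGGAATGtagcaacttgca

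A match describes the reference sequence, and binding was not measured.

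The deposited values are log2 signals, and every level below is one. The brightest of the bacterial controls that were not spiked in read 1.87 to 2.28 on the 12 arrays, and signals near that level carry little information. Each gene was represented by its brightest probe set and tested in 1 limma fit over all genes, with Benjamini-Hochberg adjustment. A gene is said to have risen or fallen where the adjusted p was below 0.05. Across the tested genes, r between replicate arrays lay between 0.996 and 0.998. The 3′ minus 5′ difference of the ACTB control, a measure of how complete the labelled RNA was, averaged 4.09 ± 0.09 at 16 h against 2.80 ± 0.07 on vehicle arrays (SD, n = 3, p = 0.1 by a two-sided exact permutation test, which can give no smaller value). At 4 h it averaged 2.68 and at 6 h 3.02. The same difference for GAPDH averaged -0.43 ± 0.04 at 16 h against -0.46 ± 0.02 with vehicle (SD, n = 3, exact permutation p = 0.3). The 18S ribosomal RNA signal averaged 8.98 at 4 h, 8.64 at 6 h and 11.06 at 16 h, against 9.62 with vehicle, without overlap with vehicle at any time (exact permutation p = 0.1 each). The part of these signals in the results was not tested. Of the 8 markers of 22Rv1 and prostate epithelium with a probe set, all were above the controls on every array, among them FOXA1, HOXB13, KLK3 and EPCAM. At 16 h 3 of the 8 fell, KLK2 (log2 change -1.30), HOXB13 (-1.06) and FOXA1 (-0.25), and KRT18 rose (0.20), while 0 passed at 4 h or 6 h by limma, with 1 at 4 h and 0 at 6 h at an unadjusted p below 0.05. Of 5 leukocyte and 5 endothelial markers, 0 and 1 were above the controls on every array. The summed linear signals were 15.4 to 18.1 (leukocyte) and 17.1 to 18.2 (endothelial) at 16 h against 17.8 to 19.1 and 17.2 to 20.1 with vehicle. At 4 h they were 17.3 to 19.3 (leukocyte) and 17.3 to 18.6 (endothelial). At 6 h they were 16.6 to 18.9 (leukocyte) and 18.4 to 25.5 (endothelial), the latter reaching above the vehicle range.

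After 4 h with the inhibitor, 3 of the 10 genes had risen and 0 had fallen: CCN1 1.73-fold, CCN2 1.73-fold and AMOTL2 1.61-fold. Over all genes tested, 0.332% rose and 0.127% fell at 4 h. The set was chosen with earlier results of these data known, so its count beside these shares is a description. At 6 h none of the 10 differed from vehicle by limma, where 0.0317% of all genes changed, and 2 of them, CCN2 and LATS2, had an unadjusted p below 0.05. At 16 h CCN1, AMOTL2 and LATS2 were higher, WWTR1 and TEAD2 were lower, and CCN2 was at 1.05 times the vehicle level. Those 3 rises and 2 falls stand against 26% of all genes that rose and 16.8% that fell at 16 h, so their number is close to the share of all genes. Groups did not overlap with vehicle for 4 genes at 4 h, 3 at 6 h and 6 at 16 h, against 18.3%, 14.4% and 51.5% of all genes. In bulk RNA, a change in the share of cells that express a gene and a change in RNA per cell cannot be told apart.

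Between treatment times, 1 of the 10 genes, AMOTL2, was lower at 6 h than at 4 h and 0 were higher, against 0.0712% and 0.0237% of all genes. At 16 h over 4 h 1 was higher (LATS2) and 5 were lower (CCN2, WWTR1, TEAD1, TEAD2 and AMOTL2), against 24.8% and 16.1% of all genes. At 16 h over 6 h 3 were higher (CCN1, AMOTL2 and LATS2) and 4 were lower (CCN2, WWTR1, TEAD1 and TEAD2), against 25.1% and 17.6%. The groups did not overlap for 7 genes at 16 h over 4 h and 6 at 16 h over 6 h, beside 52% and 52.3% of all genes.

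**Figure D1:**
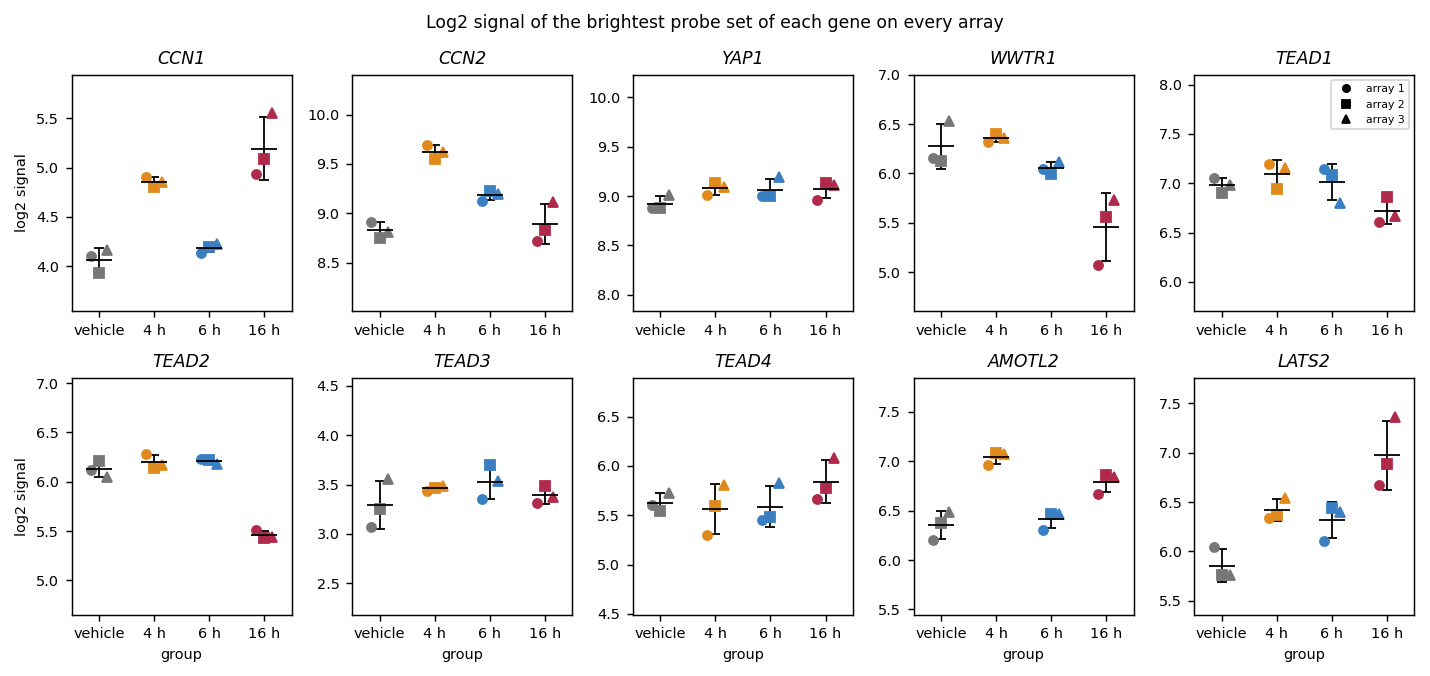
Log2 signal (vertical axis, every panel with the same span around its own centre) of the brightest probe set of each gene in the 4 groups. Symbols are the 3 arrays, horizontal bars the mean and whiskers the SD; CCN1, CCN2 and AMOTL2 stand above vehicle on all 3 arrays at 4 h, while TEAD2 stands below it at 16 h.

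CCN2, the connective tissue growth factor, had log2 signals of 8.91, 8.75 and 8.81 with vehicle, 9.69, 9.55 and 9.62 after 4 h, 9.12, 9.23 and 9.20 after 6 h, and 8.72, 8.83 and 9.12 after 16 h. The 4 h arrays were the highest without overlap, the 6 h arrays lay between them and vehicle, and the 16 h arrays overlapped with vehicle. The log2 change was 0.79 ± 0.09 at 4 h (SE, adjusted p = 0.00324), 0.36 ± 0.09 at 6 h (adjusted p = 0.282) and 0.06 ± 0.09 at 16 h (adjusted p = 0.616), the last with a 95% interval of -0.14 to 0.27. Between times, CCN2 was lower at 16 h than at 4 h by 0.73 ± 0.09 (adjusted p = 0.000105), where 40.9% of all genes differed, and lower than at 6 h by 0.29 ± 0.09 (adjusted p = 0.0259), where 42.7% did. The 6 h minus 4 h change was -0.44 ± 0.09 and did not pass (adjusted p = 0.189). With a trended and robust prior both the 6 h change from vehicle (adjusted p = 0.0378) and the 6 h minus 4 h change (adjusted p = 0.0114) passed. The 16 h minus 6 h call was lost without 6 h replicate 2 (adjusted p = 0.077) or 3 (0.0633), and without 16 h replicate 1 (0.0948) or 2 (0.0822). A fit of only the groups compared lost it too.

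CCN1, also known as CYR61, is the closest relative of CCN2 in the set and took another course late on. Its brightest probe set read 4.11, 3.93 and 4.16 with vehicle, 4.91, 4.80 and 4.85 after 4 h, 4.14, 4.19 and 4.22 after 6 h, and 4.94, 5.08 and 5.56 after 16 h. Arrays at 4 h and 16 h were all above every vehicle and 6 h array, and the 6 h arrays overlapped with vehicle. The log2 change was 0.79 ± 0.13 at 4 h (SE, adjusted p = 0.0192), 0.12 ± 0.13 at 6 h (adjusted p = 0.867) and 1.13 ± 0.13 at 16 h (adjusted p = 3.4e-05), a 2.18-fold rise. CCN1 was higher at 16 h than at 6 h by 1.01 ± 0.13 (adjusted p = 8.29e-05). The 6 h minus 4 h change of -0.67 ± 0.13 did not pass over all genes (adjusted p = 0.122), although the 3 arrays of each group did not overlap, as for 19.4% of all genes in that comparison. It passed with a trended and robust prior (adjusted p = 0.0255) and with array weights (0.0226).

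The 4 h call of CCN1 depended on having all arrays. The size of the change stayed between 0.72 and 0.84 with any 1 array left out, but the adjusted p then lay above the threshold each time. It was 0.0746, 0.0735 and 0.068 without vehicle replicate 1, 2 or 3, and 0.0779, 0.073 and 0.0907 without 4 h replicate 1, 2 or 3. The second CCN1 probe set, 210764_s_at, read 4.27, 4.33 and 4.44 at 4 h against 3.89, 3.95 and 4.08 on vehicle arrays, without overlap, and did not pass in a fit over all 22708 tested probe sets (log2 change 0.37 ± 0.13 SE). At 16 h the same probe set rose by 0.63 ± 0.13 (adjusted p = 0.00195).

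AMOTL2 had 1 probe set, with signals of 6.21, 6.38 and 6.48 with vehicle, 6.96, 7.09 and 7.07 after 4 h, 6.31, 6.47 and 6.46 after 6 h, and 6.67, 6.86 and 6.84 after 16 h. The 4 h arrays were above all others, the 16 h arrays came next, and the 6 h arrays overlapped with vehicle. It rose by 0.69 ± 0.09 at 4 h (SE, adjusted p = 0.00394) and by 0.44 ± 0.09 at 16 h (adjusted p = 0.00163, 1.35-fold), against 0.06 ± 0.09 at 6 h (adjusted p = 0.911). AMOTL2 was the 1 gene of the 10 that passed for 6 h against 4 h, where 0.095% of all genes changed, with a fall by 0.63 ± 0.09 (adjusted p = 0.0247). That call did not hold without any single array of the 6: the adjusted p was 0.0542, 0.185 and 0.16 without 4 h replicate 1, 2 or 3, and 0.123, 0.0796 and 0.0837 without 6 h replicate 1, 2 or 3, while the change stayed between -0.67 and -0.57.

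At 16 h AMOTL2 was higher than at 6 h by 0.38 ± 0.09 (SE, adjusted p = 0.00415) and lower than at 4 h by 0.25 ± 0.09 (adjusted p = 0.0364). The second of these was lost without 4 h replicate 2 (adjusted p = 0.106) or 3 (0.0946) and without 16 h replicate 1 (0.12) or 3 (0.0541). That call was also lost with median centring (0.0536) and with no filter (0.0582).

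LATS2 had signals of 6.04, 5.76 and 5.76 with vehicle, 6.34, 6.37 and 6.55 after 4 h, 6.11, 6.44 and 6.39 after 6 h, and 6.68, 6.89 and 7.36 after 16 h on its brightest probe set. Every treated array was above every vehicle array at all 3 times, and the 4 h and 6 h arrays overlapped with each other. The log2 change was 0.56 ± 0.16 at 4 h (SE, adjusted p = 0.196) and 0.46 ± 0.16 at 6 h (adjusted p = 0.434), neither of which passed, and 1.12 ± 0.16 at 16 h (adjusted p = 0.000159, 2.17-fold). The 16 h level was above that at 4 h by 0.55 ± 0.16 (adjusted p = 0.0144) and above that at 6 h by 0.66 ± 0.16 (adjusted p = 0.00528). A second probe set, 223380_s_at, rose at 16 h by 1.09 ± 0.23 (adjusted p = 0.00277) with a wide spread between arrays, 5.98, 5.39 and 6.58 against 4.99, 5.07 and 4.62 on vehicle arrays. The other LATS2 probe sets, 230348_at and 223379_s_at, averaged below the tested level, and 230348_at, not above the controls on any vehicle array, was at least 1.18-fold higher at 16 h (log2 means of 2.38 at 16 h and 1.58 with vehicle).

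**Figure D2:**
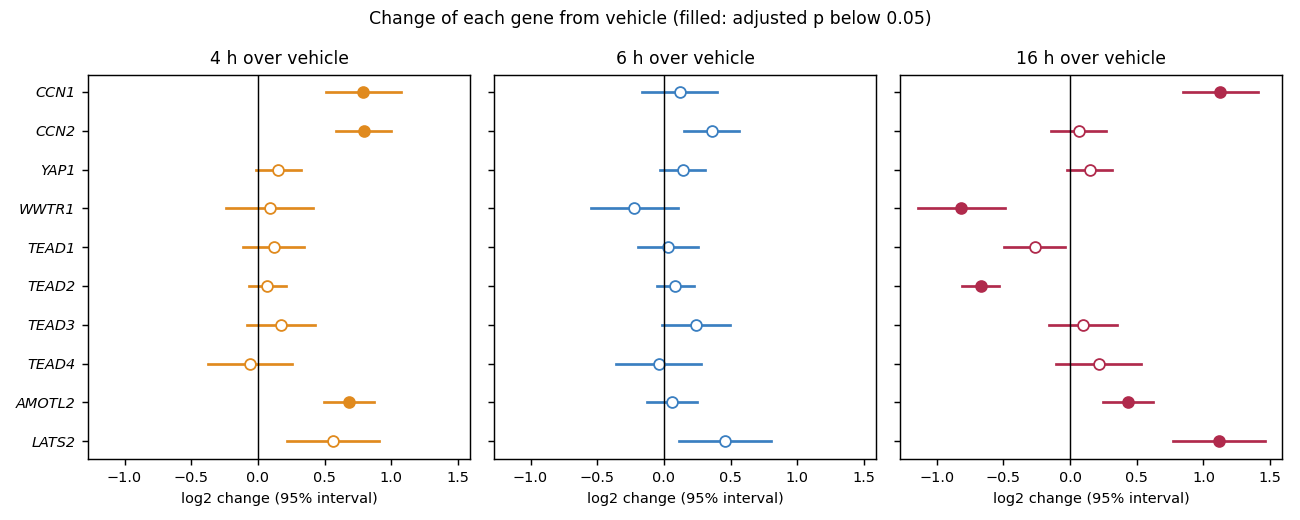
Log2 change from vehicle (horizontal axis) of each gene at 4 h, 6 h and 16 h, with the 95% interval of the limma fit as a line; filled points passed at an adjusted p below 0.05. CCN1, CCN2 and AMOTL2 are filled at 4 h, no gene at 6 h, and CCN1, WWTR1, TEAD2, AMOTL2 and LATS2 at 16 h.

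Of the co-activator genes, WWTR1 fell at 16 h and YAP1 did not pass. WWTR1 fell at 16 h by 0.82 ± 0.15 on the log2 scale (SE, adjusted p = 0.000991), which is 1.76-fold, on a probe set with signals of 5.07, 5.56 and 5.73 at 16 h against 6.16, 6.13 and 6.53 on vehicle arrays. The groups did not overlap, and 16 h replicate 1 was the lowest array. At 4 h the arrays read 6.32, 6.40 and 6.36 and at 6 h 6.04, 5.99 and 6.12, with changes from vehicle of 0.09 ± 0.15 (adjusted p = 0.871) and -0.22 ± 0.15 (adjusted p = 0.76). WWTR1 was also lower at 16 h than at 4 h by 0.90 ± 0.15 (adjusted p = 0.000581) and than at 6 h by 0.59 ± 0.15 (adjusted p = 0.00719). A dimmer WWTR1 probe set, 202132_at, with means of 2.54 at 16 h and 2.68 on vehicle arrays, did not pass (log2 change -0.14 ± 0.12), and the third was below the tested level. With the mean of all 3 probe sets the change was -0.25 at 16 h over vehicle (adjusted p = 0.0124) and -0.27 at 16 h over 4 h (adjusted p = 0.00836), both smaller falls that still passed. The 16 h minus 6 h change was then -0.12 and its call was lost (adjusted p = 0.193).

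YAP1 on its brightest probe set, 224894_at, read 8.96, 9.13 and 9.12 at 16 h against 8.88, 8.87 and 9.01 on vehicle arrays, and 9.01 to 9.13 at 4 h and 9.00 to 9.19 at 6 h. The groups overlapped at all 3 times and no change passed, with log2 changes of 0.15 ± 0.08 at 4 h, 0.14 ± 0.08 at 6 h and 0.15 ± 0.08 at 16 h (SE, adjusted p of 0.507, 0.69 and 0.146). The 95% interval at 16 h ran from -0.02 to 0.32.

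The 3 YAP1 probe sets did not move alike at 16 h. Probe set 213342_at rose by 1.20 ± 0.13 (SE, adjusted p = 3.23e-05), with 5.90, 6.48 and 6.39 at 16 h against 5.05, 4.97 and 5.14 on vehicle arrays. Probe set 224895_at fell by 0.38 ± 0.12 (adjusted p = 0.0278), with 6.996, 7.32 and 7.52 against 7.68, 7.77 and 7.51, which overlapped. The direction for YAP1 at 16 h therefore depended on the probe set, and with their mean the gene passed as higher (log2 change 0.32, adjusted p = 0.0104). On the same arrays the 5′ ACTB control averaged 9.03 ± 0.13 at 16 h against 10.41 ± 0.04 with vehicle (SD, n = 3), and its part in these differences was not tested. At 4 h and 6 h no YAP1 probe set passed.

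**Figure D3:**
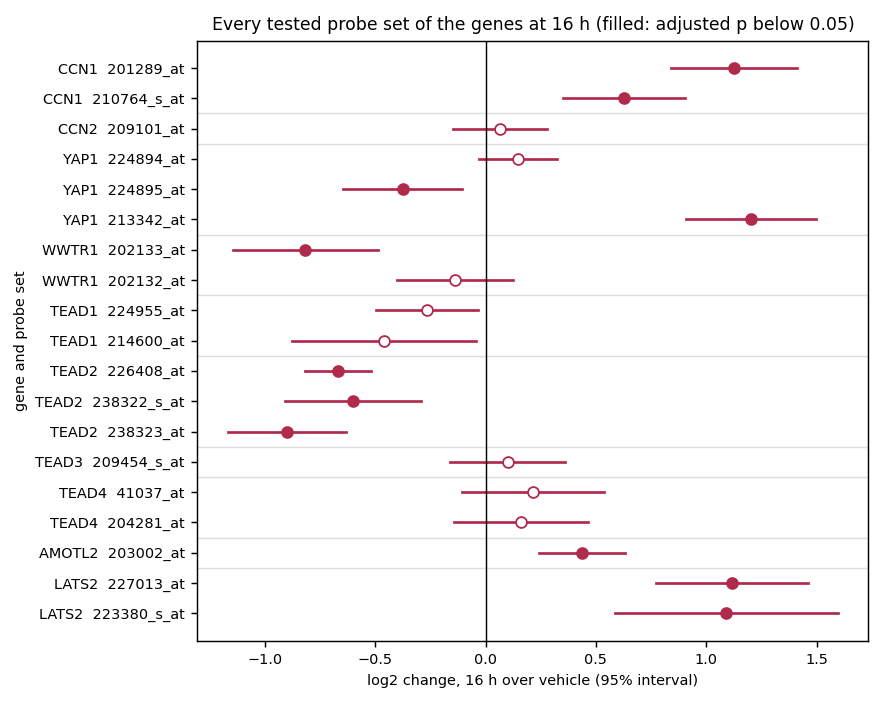
Log2 change at 16 h over vehicle (horizontal axis) with 95% interval for each of the 19 tested probe sets, grouped by gene and ordered by vehicle signal within a gene; filled points passed at an adjusted p below 0.05. The 3 YAP1 probe sets lie on both sides of 0, whereas the 3 TEAD2 probe sets all lie below it and both LATS2 probe sets above it.

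Of the TEAD genes, TEAD2 was the one that fell at 16 h, by 0.67 ± 0.06 on the log2 scale (SE, adjusted p = 8.98e-06), which is 1.59-fold. Its arrays read 5.51, 5.42 and 5.44 at 16 h against 6.12, 6.21 and 6.05 on vehicle arrays, with a gap between the groups much wider than the spread within them. At 4 h it read 6.28, 6.14 and 6.17 and at 6 h 6.23, 6.22 and 6.18, which overlapped with vehicle. Against 4 h the 16 h fall was 0.74 ± 0.06 (adjusted p = 5.15e-06), and against 6 h it was 0.75 ± 0.06 (adjusted p = 3.86e-06). The other 2 tested TEAD2 probe sets were near the controls at 16 h. Probe set 238323_at, above them on 0 of the 3 arrays at 16 h, was at least 1.46-fold lower there (log2 means of 1.59 at 16 h and 2.49 with vehicle). Probe set 238322_s_at, above them on 2 of the 3 arrays at 16 h, had 2.33, 1.90 and 1.87 at 16 h against 2.61, 2.54 and 2.76 with vehicle, so the size of its difference is uncertain. Both reached the mean of 2.11 needed for testing only through the other groups, so no p-value is given for them.

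TEAD1 had signals of 6.61, 6.86 and 6.67 at 16 h against 7.05, 6.91 and 6.99 on vehicle arrays, without overlap, and a log2 change of -0.27 ± 0.10 (SE, adjusted p = 0.057) that lay just outside the threshold. It passed under 6 of 16 alternatives: without 16 h replicate 2 (adjusted p = 0.0343), with quantile normalisation (0.0376), median centring (0.045), a filter at the 75th percentile (0.0385), a trended and robust prior (0.0391) or only the groups compared (0.049). Against 4 h TEAD1 was lower at 16 h by 0.38 ± 0.10 (adjusted p = 0.0115), and against 6 h by 0.30 ± 0.10 (adjusted p = 0.0372). The 16 h minus 6 h call was lost without 6 h replicate 1 (adjusted p = 0.135) or 2 (0.113) and without 16 h replicate 1 (0.111) or 3 (0.0977). It was also lost with no filter (0.0535), array weights (0.0789), only the groups compared (0.0705) and the mean of probe sets, which gave -0.08 (0.583). With that mean the 16 h minus 4 h change was -0.20 and its call was lost too (adjusted p = 0.164). At 4 h and 6 h TEAD1 was 0.12 ± 0.10 and 0.03 ± 0.10 from vehicle, and neither passed.

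TEAD3 and TEAD4 passed in none of the 6 comparisons in the fit of all 4 groups without a replicate block. With the replicate number as a block, TEAD4 passed as higher at 16 h than at 4 h (adjusted p = 0.0193) and than at 6 h (0.0262). With quantile normalisation TEAD3 passed as lower at 16 h than at 6 h (log2 change -0.28, adjusted p = 0.0408). TEAD3 averaged 3.39 ± 0.09 at 16 h against 3.29 ± 0.24 on vehicle arrays (SD, n = 3), with a 95% interval of -0.15 to 0.35 for the log2 change. TEAD4 averaged 5.84 ± 0.22 at 16 h against 5.63 ± 0.09 on vehicle arrays (SD, n = 3), with an interval of -0.10 to 0.53. The second TEAD4 probe set, 204281_at, gave a change of 0.16 ± 0.14 (SE) and did not pass. Against vehicle, the TEAD family therefore had 1 member that fell and 3 that did not pass without a replicate block.

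In the fit over all tested probe sets, 19 of the 24 probe sets of the 10 genes took part. At 4 h 3 of the 19 rose and 0 fell, against 0.22% and 0.185% of all tested probe sets. At 6 h 0 changed by limma, against 0.92% of all. At 16 h 6 rose and 5 fell, against 23.3% and 18%. The falls include TEAD2 probe sets 238323_at and 238322_s_at, which reached the level needed for testing only through the other groups. By either fit the early changes stand among few changed features, and the late ones among very many. These counts are likewise descriptions, since the set was chosen with earlier results of these data known.

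Other genes of the pathway were taken from lists of known YAP and TAZ targets, of Hippo kinases and partners, of further CCN genes and of cytoskeletal genes that serum response factor (SRF) and its MRTF co-activators induce. These lists were chosen with earlier results of these data known. Of 11 tested targets outside the set, none rose at 4 h and IGFBP3 fell, against 1 rise and 2 falls at an unadjusted p below 0.05. The median log2 change of this list was -0.01 at 4 h, against 0.00 over all genes, so the early rise of CCN1, CCN2 and AMOTL2 was not accompanied by a rise of the tested targets that passed. IGFBP3, which binds insulin-like growth factors, averaged 8.19 ± 0.22 at 4 h against 8.77 ± 0.03 on vehicle arrays (SD, n = 3), a fall by 0.58 ± 0.09 (SE, adjusted p = 0.0192). At 6 h 0 of the 11 passed, with 1 higher and 1 lower at an unadjusted p below 0.05.

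At 16 h 8 of these 11 targets rose and 1 fell, with a median log2 change of 0.54 against 0.05 over all genes, of which 26% rose and 16.8% fell. GADD45A, a growth arrest gene that p53 also induces, averaged 10.01 ± 0.17 at 16 h against 7.47 ± 0.11 on vehicle arrays (SD, n = 3), a rise of 5.82-fold. MYOF, a membrane repair protein, rose 1.88-fold and TGFB2, a growth factor of the transforming growth factor beta family, rose 1.56-fold. F3, which encodes tissue factor, fell 1.69-fold. IGFBP3, lower at 4 h, was higher at 16 h by 0.56 ± 0.09 (SE, adjusted p = 0.000525). CCN3 was the 1 gene tested of 4 further CCN genes on the array. It averaged 3.16 ± 0.35 at 16 h against 1.95 ± 0.26 on vehicle arrays (SD, n = 3). Only 1 of its 3 vehicle arrays was above the controls. CCN3 reached the mean of 2.11 needed for testing only through its 16 h arrays, so no p-value is given for it. Of 4 tested fibroblast markers 2 rose at 16 h, COL1A1 and LUM, and 2 fell, and the summed linear signal of the fibroblast list ran from 102 to 137 at 16 h against 51.7 to 62.9 on vehicle arrays. Of its 7 genes, COL1A2, PDGFRB and FAP were not above the controls on any array, and 3 were above them on all 12; their part in the 16 h changes was not tested.

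**Figure D4:**
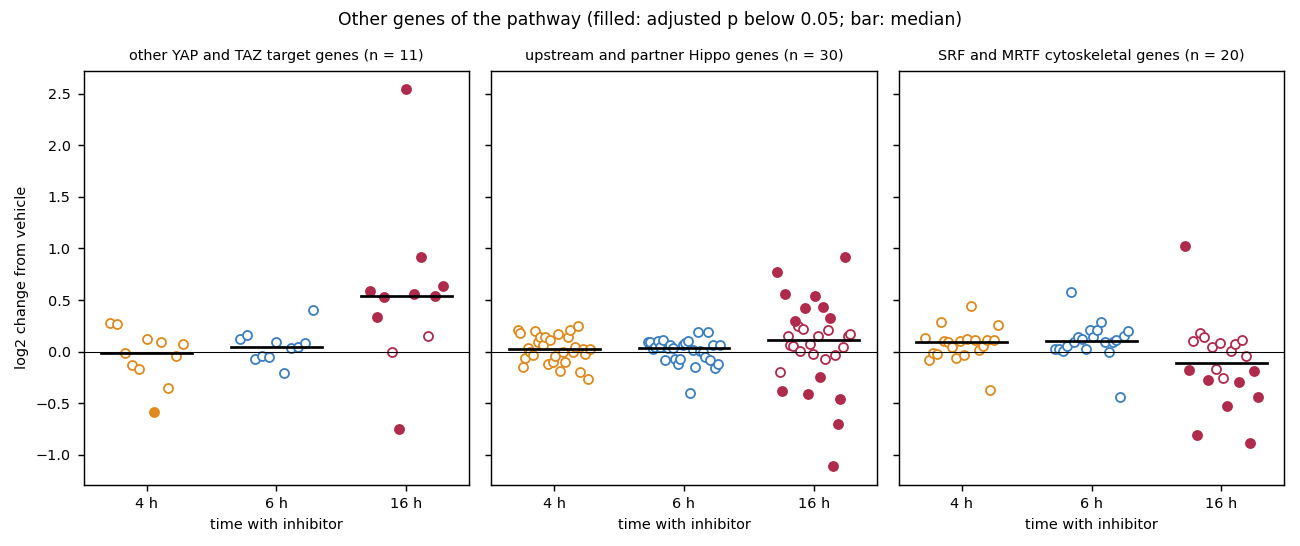
Log2 change from vehicle (vertical axis) for each tested gene of 3 lists at 4 h, 6 h and 16 h; filled points passed at an adjusted p below 0.05 and bars are medians. The 11 YAP and TAZ targets have a median of -0.01 at 4 h and 0.54 at 16 h, while the 30 Hippo genes spread to both sides at 16 h.

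Of 30 tested Hippo kinases, adaptors and partners, 0 passed at 4 h and 0 at 6 h by limma, with 4 and 2 at an unadjusted p below 0.05. At 16 h 8 rose and 6 fell, shares close to those of all genes. STRN4, a scaffold of the phosphatase complex that acts on the Hippo kinases, fell 2.15-fold, and the upstream kinase gene TAOK2 fell 1.63-fold. VGLL4, which competes with YAP for TEAD proteins, rose 1.89-fold, and AJUBA, a LIM protein that restrains LATS kinases, rose 1.71-fold. These 4 were named because they had the largest 16 h changes among the called genes of the list. Their 16 h and vehicle arrays did not overlap, as for 51.5% of all genes.

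Among 20 tested SRF and MRTF cytoskeletal genes 0 passed at 4 h and 0 at 6 h by limma, with 1 and 5 higher at an unadjusted p below 0.05. At 16 h 1 rose and 8 fell, beside 26% and 16.8% of all genes, with a median log2 change of -0.11 against 0.05 over all genes. The smooth muscle actin gene ACTA2 was the one that rose (log2 means of 3.29 at 16 h and 2.27 with vehicle, adjusted p = 0.00105). Its vehicle arrays read 2.27, 2.07 and 2.47, near the controls and with replicate 2 not above them, so the size of its rise is uncertain. ACTN4, an actin crosslinker, fell 1.75-fold and PDLIM7 fell 1.44-fold. TPM4, a tropomyosin, fell 1.85-fold from vehicle arrays that read 7.24, 6.28 and 6.62 (SD 0.49). TPM4 did not pass at 16 h over 4 h or at 16 h over 6 h.

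The genes whose levels tracked CCN1 most closely over the 12 arrays, among 551 with group means that spanned at least 1 on the log2 scale, were ATF3 (Pearson r = 0.943), FAM131B-AS2 (0.929), ELF3 (0.928), DNAJB4 (0.927) and FLRT3 (0.922). Each had a higher mean at 4 h than at 6 h and its highest at 16 h. For CCN2 the candidates were 552 genes with a span of at least 1, which CCN2 itself did not reach. The closest was KLF6 (r = 0.753). Its means were 8.33 with vehicle, 9.38 after 4 h, 8.81 after 6 h and 9.04 after 16 h. ERCC6L (0.668), CLN6 (0.593), BRIP1 (0.593) and HOMER2 (0.576) followed, all lower at 16 h than on vehicle arrays. Genes of smaller span, AMOTL2 among them, were not candidates. These correlations are descriptions over arrays that share the 4 groups.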

How the data were processed

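Total RNA from 22Rv1 cells was amplified from the 3′ end and hybridised to Affymetrix arrays, per the labels' protocols. The authors deposited log2 values for each probe set, made with GCRMA per the submitters' processing notes. The build used for the probes is not given in the sources used here.

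Probe sets with 1 gene symbol in the platform annotation were renamed through the Entrez identifier against RefSeq. Each gene was read from its brightest probe set (mean of 12 arrays), and genes below a mean of 2.11, the middle value of the whole array, were left out. All arrays entered 1 model of 4 groups in limma 3.58.1 under R 4.3.3 (lmFit, eBayes, 8 residual degrees of freedom), two-sided, with p-values adjusted over 12635 genes for each of 6 comparisons, and the code was tested on simulated data. Probe sets ending in _s_at can bind related transcripts. Precision is limited by the few arrays in a group. Normalisation between arrays would remove a shift common to most genes.

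Named were all 10 members. From each list, called genes were named at 4 h and 6 h, and up to 4 with the largest changes at 16 h. For CCN1 and CCN2, the 5 most correlated genes were named. The members and lists were chosen with earlier results of these data known. Alternatives covered scaling, filters, probe set rules, priors, weights, the replicate block and leaving out each array.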

Additional observations from a re-analysis of the deposited data

Results flagged for a closer look

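By limma's test of the difference between treatment times, 1 of the 10 genes passed at 6 h over 4 h, where 0.095% of all genes did. At 16 h over 4 h 6 passed, beside 40.9% of all genes, and at 16 h over 6 h 7 passed, beside 42.7%. Log2 changes at 16 h over 6 h were 1.01 for CCN1, 0.66 for LATS2, 0.38 for AMOTL2, -0.29 for CCN2, -0.59 for WWTR1, -0.30 for TEAD1 and -0.75 for TEAD2. At 16 h over 4 h they were 0.55 for LATS2, -0.25 for AMOTL2, -0.73 for CCN2, -0.90 for WWTR1, -0.38 for TEAD1 and -0.74 for TEAD2. At 6 h over 4 h the change was -0.63 for AMOTL2. Between 6 h and 16 h the target CCN1 thus rose and the target CCN2 fell, although the CCN2 call was lost under 5 of 16 alternatives.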

How the results depend on the processing

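Of 22 called changes of single genes over the 6 comparisons, 15 passed under every alternative, 7 were lost under at least 1, and 0 changed sign. Leaving out 1 array at a time gave 2 called genes at 4 h over vehicle (3 with all arrays), 0 at 6 h, 5 to 6 at 16 h, 0 at 6 h over 4 h (1 with all arrays), 5 to 6 at 16 h over 4 h and 5 to 6 at 16 h over 6 h. The trended and robust prior gave 1 at 6 h over vehicle (CCN2) and 3 at 6 h over 4 h. For 6 h over 4 h, median centring, the mean of probe sets and a fit of only the groups compared each gave 0, and array weights gave 2. The mean of probe sets also ended the CCN1 call at 4 h. Replicate numbers in the titles were not taken as pairs: the correlation of same-numbered deviations from group means ran from -0.00455 to 0.235, with 5 of 18 over 0.1, and an array correlated best with its own number in 22 of 36 checks. With the replicate block, the calls numbered 3, 0 and 5 at 4 h, 6 h and 16 h over vehicle, 1 at 6 h over 4 h, and 8 each at 16 h over 4 h and 16 h over 6 h. The block added CCN1 at 16 h over 4 h, and TEAD4 at 16 h over 4 h (adjusted p = 0.0193) and at 16 h over 6 h (0.0262). Signals near the unspiked controls limit the dim probe sets of TEAD1, TEAD2, WWTR1 and LATS2.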
